A study of Homo sapiens with 2 samples.

Results

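Hotspots on human chromosome 13 were compared between Saos-2 and U2OS, a pair of established cell lines grown from human osteosarcoma, a malignant bone tumour. Each line was profiled once by DNase-seq: nuclei were digested briefly with DNase I, which cuts DNA where nucleosomes leave it exposed, and the authors called a hotspot wherever cuts were dense at a false discovery rate of 0.05. No treatment or genetic change is named for either line, and 1 library per line means that no value carries a replicate error and that no test was possible. The hotspots described were selected by their chromosome from those calls, so their presence and significance are the values that chose them. There were 1305 in Saos-2 and 1382 in U2OS, together 2687 of the 114944 hotspots in both lists. They made up 2.53% of the 51556 Saos-2 hotspots and 2.18% of the 63388 U2OS hotspots. Positions are on hg38, and genes were placed with RefSeq annotation of GRCh38.p14.

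A DNase hotspot usually marks a promoter, an enhancer or another regulatory element from which a bound protein has displaced the nucleosome. Promoters rich in CpG dinucleotides tend to be open in most cell types, whereas enhancers differ more between them. Chromosome 13 is acrocentric, so its short arm holds ribosomal RNA genes and repeats and its protein-coding genes lie on the long arm, with long gene-poor stretches. It carries RB1, the retinoblastoma tumour suppressor, which holds E2F transcription factors in check before S phase and is often lost in osteosarcoma. Saos-2 is known to make no functional RB1 protein, whereas U2OS retains RB1.

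The following RefSeq promoters show what a called and an uncalled gene start on chromosome 13 looked like in sequence. Each runs 5′ to 3′ along its gene, from 250 bases before to 50 bases after the transcription start, on GRCh38.p14. Capitals mark matches, on either strand, to the GC box GGGCGG, the CCAAT box, the ETS-type motif CCGGAA, the cyclic AMP response motif TGACGTCA, the AP-1-type motif TGANTCA or the palindromic motif of the factor NRF1; none of these motifs contains another. MED4 (chr13:48095055-48095354, minus strand), a subunit of the Mediator complex, and GPR180 (chr13:94601607-94601906, plus strand), a membrane protein, had a hotspot in both lines. WBP4 (chr13:41061259-41061558, plus strand), a spliceosome-associated protein, and LACC1 (chr13:43878928-43879227, plus strand), a metabolic enzyme of macrophages, had one in Saos-2 alone. PCID2 (chr13:113208620-113208919, minus strand), a factor in export of messenger RNA, had one in U2OS alone. TNFSF11 (chr13:42562486-42562785, plus strand), which encodes the osteoclast-inducing ligand RANKL, had none.
MED4: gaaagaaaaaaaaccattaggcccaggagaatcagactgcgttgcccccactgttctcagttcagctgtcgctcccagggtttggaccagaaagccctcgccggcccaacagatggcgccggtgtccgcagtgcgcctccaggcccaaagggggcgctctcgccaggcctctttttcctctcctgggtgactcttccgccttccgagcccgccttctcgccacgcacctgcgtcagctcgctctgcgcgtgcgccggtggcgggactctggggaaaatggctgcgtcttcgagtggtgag
GPR180: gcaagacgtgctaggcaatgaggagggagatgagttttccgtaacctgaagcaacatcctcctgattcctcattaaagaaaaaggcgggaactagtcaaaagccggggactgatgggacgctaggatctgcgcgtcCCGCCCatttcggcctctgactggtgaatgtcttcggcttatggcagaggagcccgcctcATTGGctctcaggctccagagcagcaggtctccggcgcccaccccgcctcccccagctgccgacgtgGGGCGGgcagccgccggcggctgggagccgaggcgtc
WBP4: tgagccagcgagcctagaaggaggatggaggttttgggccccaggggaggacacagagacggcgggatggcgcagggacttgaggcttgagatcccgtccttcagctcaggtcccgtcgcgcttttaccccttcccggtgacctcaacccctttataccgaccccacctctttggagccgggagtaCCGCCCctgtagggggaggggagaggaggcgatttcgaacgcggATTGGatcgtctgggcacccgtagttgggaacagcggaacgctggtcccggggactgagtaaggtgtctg
LACC1: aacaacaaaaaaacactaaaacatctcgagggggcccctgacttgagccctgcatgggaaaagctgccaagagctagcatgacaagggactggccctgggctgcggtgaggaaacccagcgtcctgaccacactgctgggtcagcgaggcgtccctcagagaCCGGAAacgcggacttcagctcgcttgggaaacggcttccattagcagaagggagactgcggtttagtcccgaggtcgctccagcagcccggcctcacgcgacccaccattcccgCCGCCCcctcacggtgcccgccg
PCID2: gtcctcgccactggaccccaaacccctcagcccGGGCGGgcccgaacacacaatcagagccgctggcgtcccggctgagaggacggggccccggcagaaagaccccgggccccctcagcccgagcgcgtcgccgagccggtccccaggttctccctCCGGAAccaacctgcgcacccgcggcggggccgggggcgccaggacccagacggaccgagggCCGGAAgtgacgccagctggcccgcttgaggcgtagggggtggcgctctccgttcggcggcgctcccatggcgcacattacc
TNFSF11: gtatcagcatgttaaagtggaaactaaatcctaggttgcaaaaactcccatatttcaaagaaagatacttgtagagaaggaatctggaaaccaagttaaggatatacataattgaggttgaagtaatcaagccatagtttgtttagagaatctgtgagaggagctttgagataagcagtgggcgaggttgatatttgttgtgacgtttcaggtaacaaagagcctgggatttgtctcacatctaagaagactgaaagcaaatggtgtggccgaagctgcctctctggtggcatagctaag

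The 5 promoters with a hotspot held between 21 and 35 CpG dinucleotides, and the printed one of TNFSF11 held 3. A further TNFSF11 promoter in the table, at a start within the gene, also had no hotspot and held 14. At MED4 the Saos-2 hotspot reached a significance of 14.6 and the U2OS hotspot 8.34. In what follows, significance is the authors' −log10 value for each hotspot, and it ranks hotspots within a list. At GPR180 it was 34 in Saos-2 and 81.3 in U2OS, the highest value of any chromosome 13 hotspot in either list. The hotspot over the WBP4 promoter had 6.9 and that over LACC1 had 10.7, both in Saos-2. The U2OS hotspot over PCID2 had 14.5.

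The RefSeq promoter table matched 299 of the 338 protein-coding genes of chromosome 13, with 434 promoter windows of 300 bases. A hotspot in both lines touched 131 of these (30.2%, against 35.5% of all promoters in the table). One in Saos-2 alone touched 40 (9.22%, against 4.18%), and one in U2OS alone touched another 40 (9.22%, against 8.12%). The other 223 (51.4%, against 52.2%) had none. The median number of CpG dinucleotides was 26 in promoters called in both lines, 30.5 in those called in Saos-2 alone, 26.5 in those called in U2OS alone and 13 in those without a hotspot. Over the whole genome the same medians were 27, 25, 27 and 9.

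The GC box and the ETS-type motif were least frequent in promoters without a hotspot. GGGCGG was in 61.8% of chromosome 13 promoters called in both lines, 65% of those called in Saos-2 alone, 60% of those called in U2OS alone and 47.5% of those without a hotspot. It was in 56.3% of all promoters in the table, and by class over the whole genome in 73.5%, 65.3%, 70.8% and 41.6%. CCGGAA was in 35.1%, 25%, 15% and 9.42% of the same 4 classes of chromosome 13, and in 21.2% of all promoters. Its whole-genome class values were 36.3%, 21.9%, 22.9% and 10.6%. CCAAT was in 39.7%, 27.5%, 30% and 34.1%, against whole-genome class values of 43.3%, 29%, 28.4% and 30.2%, and in 34.7% of all promoters. TGANTCA was in 4.58%, 5%, 12.5% (5 of 40) and 5.83%, against 4.69%, 6.47%, 6.77% and 7.02%, and in 6.15% of all promoters. TGACGTCA was in 2.07% of chromosome 13 promoters and 2.26% of all, and the NRF1 motif in 2.07% and 1.5%. A match here is a string of letters and says nothing of whether a protein was bound.

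The lists as a whole set the scale for these values. The number of reads per library is unknown, so the length of each list stands in for depth, and all ratios below were centred by subtracting 0.30, which is log2 of U2OS over Saos-2 hotspots across chromosomes 1 to 22 and X. Library depth, the number of copies of a region and its accessibility cannot be told apart from hotspot lists. All 8 osteoblast-lineage genes examined, among them RUNX2 and COL1A1, had a hotspot inside or within 10 kb in both lines, and so did all 4 blood genes and both neuronal genes examined. Of 3 epithelial genes, 2 had one in Saos-2 and 1 in U2OS, and of 2 liver genes 1 had one in each line. For scale, of the 338 protein-coding genes of chromosome 13, which holds none of these markers, 241 had one in Saos-2 and 256 in U2OS. A hotspot near a gene thus did not separate the osteoblast genes from those of blood and neurons.

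Chromosome 13 hotspots covered 354 kb in Saos-2 and 359 kb in U2OS, with median widths of 234 and 237 bp. Median significance on the chromosome was 4.1 for Saos-2 hotspots and 4.26 for U2OS hotspots, against 4.05 and 4.6 over all chromosomes. The centred log2 ratio of hotspot number was −0.22 (95% exact binomial interval −0.33 to −0.11), which placed chromosome 13 at rank 4 from the low end among 23 chromosomes. Saos-2 therefore had more hotspots on this chromosome than the lengths of the lists would give. Without the 40 to 45 Mb window the ratio was −0.12 (−0.24 to −0.01), from 1127 and 1273 hotspots. Without all 3 windows whose own interval lay below 0, chosen after their values were seen, it was 0.0 (−0.13 to 0.13), from 912 and 1121. Intervals take account of counting error alone, although hotspots near each other are not independent.

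About as many chromosome 13 hotspots lacked a counterpart in the other line as had one. In Saos-2, 638 hotspots (48.9%, Wilson 95% interval 46.2 to 51.6) were overlapped by a U2OS hotspot by at least 1 bp, against 58.1% over all chromosomes. The 667 without overlap were 51.1% of the Saos-2 hotspots, where the whole list had 41.9%. In U2OS, 643 (46.5%, 43.9 to 49.2) were overlapped, against 46.9% over all chromosomes, and the 739 without overlap were 53.5% where the whole list had 53.1%. Saos-2 was thus further from its genome-wide share than U2OS. Among the other acrocentric chromosomes the Saos-2 share was 60.5% on chromosome 14, 61.5% on chromosome 15, 43.5% on chromosome 21 and 66.6% on chromosome 22. With hotspots less than 150 bp apart merged, 51.1% (48.3 to 53.9) of those in Saos-2 and 46.7% (44 to 49.4) of those in U2OS were overlapped. When both lists were cut to equal length by significance, the shares were 43.2% in Saos-2 and 51.8% in U2OS, which turns their order.

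Overlap rose with significance in both lines. Each list was cut by rank into 4 groups of equal size. In the Saos-2 group of lowest significance 27.2% were overlapped, and the next groups had 37.1%, 51.5% and 79.8%. The U2OS groups had 29.5%, 35.4%, 49.3% and 72%. Median significance was 6.14 for overlapped Saos-2 hotspots and 5.88 for overlapped U2OS hotspots, and without overlap it was 2.98 and 3.41. Their median widths were 297 and 292 bp with overlap, and 193 and 201 bp without.

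Gene ends held a smaller share of the hotspots here than over the genome. Hotspots up to 1 kb from the start or the finish of a protein-coding gene were counted as gene-end hotspots. There were 190 in Saos-2 (14.6%, 12.7 to 16.6, against 20.2% over all chromosomes) and 173 in U2OS (12.5%, 10.9 to 14.4, against 18.4%). In Saos-2, 124 of 190 (65.3%, 58.3 to 71.7) were overlapped, compared with 46.1% (43.2 to 49) of the other hotspots. In U2OS, 123 of 173 (71.1%, 63.9 to 77.3) were overlapped, compared with 43% (40.2 to 45.8) of the others. The intervals of gene-end and other hotspots did not meet in either line. Over all chromosomes the gene-end shares were 79.9% in Saos-2 and 70.3% in U2OS, so the shortfall on chromosome 13 was in the Saos-2 share. Median significance was 4.79 at gene ends and 3.98 elsewhere in Saos-2, and 5.51 and 4.12 in U2OS.

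**Figure D1:**
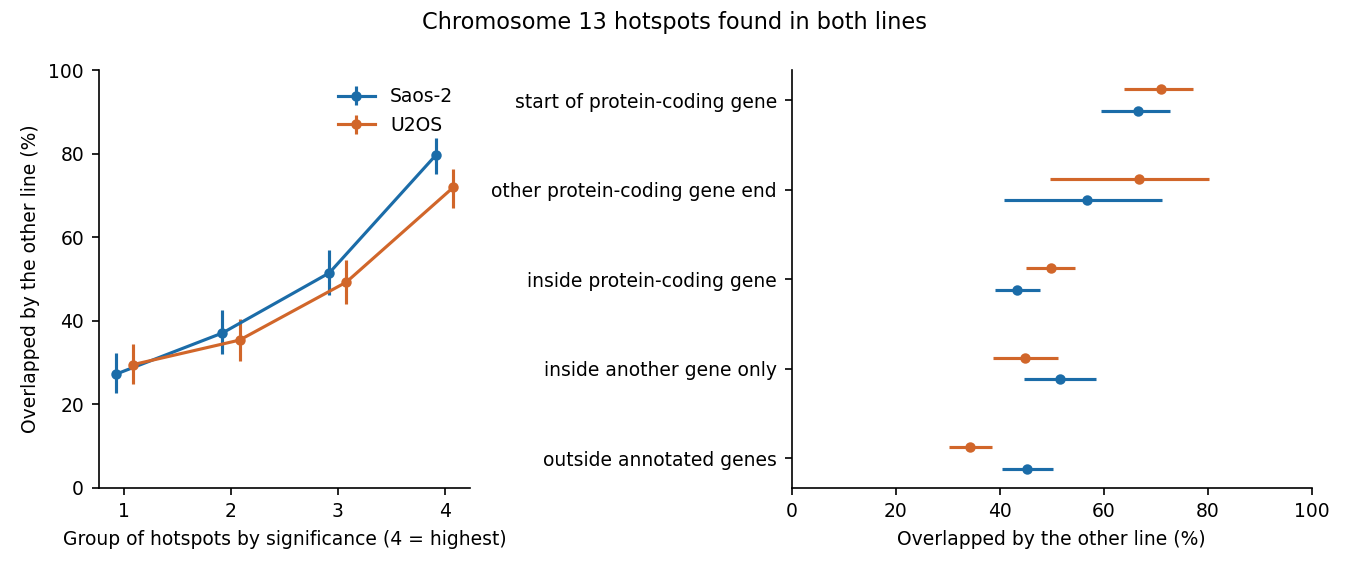
Share of chromosome 13 hotspots overlapped by the other line (%), with Wilson 95% intervals as bars, by rank group of significance within each list (left) and by location relative to genes (right). The share rises from 27.2% to 79.8% in Saos-2 and from 29.5% to 72% in U2OS, and hotspots outside annotated genes are the lowest class in U2OS at 34.3%.

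The overlapped share differed most between the lines at hotspots away from genes. Hotspots outside every annotated gene numbered 386 in Saos-2 (29.6% of its chromosome 13 list) and 495 in U2OS (35.8%). Of these, 45.3% (40.4 to 50.3) were overlapped in Saos-2 and 34.3% (30.3 to 38.6) in U2OS. Inside protein-coding genes, away from their starts and ends, the order was the other way, with 500 hotspots in Saos-2 (38.3% of its list, 43.4% overlapped) and 442 in U2OS (32%, 49.8% overlapped). RefSeq starts of protein-coding genes include starts inside genes, so hotspots within 1 kb of them differ from the gene-end set above. There were 188 in Saos-2, of which 66.5% were overlapped, and 176 in U2OS, of which 71% were. A further 37 in Saos-2 and 33 in U2OS lay at other protein-coding gene ends. Hotspots within 1 kb of a 3′ end and of no RefSeq start were few, 7 in Saos-2 and 11 in U2OS.

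U2OS hotspots without overlap were also the more isolated ones. Of the 739, 186 lay over 100 kb from any Saos-2 hotspot (25.2%, 22.2 to 28.4, against 15.7% over all chromosomes). Of the 667 in Saos-2, 36 lay that far from any U2OS hotspot (5.4%, 3.92 to 7.38, against 4.14%). Median distances to the nearest hotspot of the other line were 34.8 kb in U2OS and 15.6 kb in Saos-2. With lists of equal length the shares were 26% and 7.83%. Near misses were a minority: 49 of the U2OS hotspots and 92 of the Saos-2 hotspots had a hotspot of the other line within 1 kb.

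Along the long arm the lines rose and fell together. Hotspots occurred in 20 windows of 5 Mb, and each window held at least 20 over both lines. Across these windows the Spearman correlation between the lines' counts was 0.88, and that with the number of protein-coding genes was 0.65 in Saos-2 and 0.73 in U2OS. These are descriptions over neighbouring windows of the same pair of libraries. The fullest windows were 40 to 45 Mb in Saos-2, with 178 hotspots, and 110 to 115 Mb in U2OS, with 142. The fewest over both lines were at 55 to 60 Mb, with 9 in Saos-2 and 21 in U2OS. U2OS had more hotspots in 15 windows and Saos-2 in 5.

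**Figure D2:**
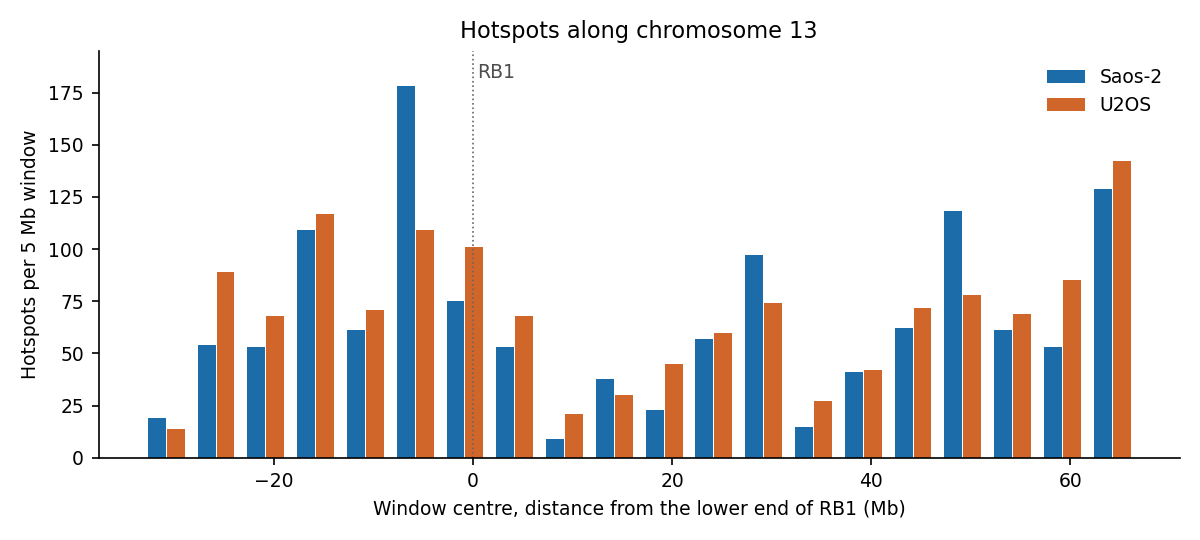
Hotspots per 5 Mb window of chromosome 13 in Saos-2 and U2OS, against the distance of the window's centre from the lower end of RB1 (Mb), marked by the dotted line. The tallest bar is the Saos-2 count of 178, beside a U2OS count of 109, in the 40 to 45 Mb window below RB1.

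In 3 windows the centred ratio had an interval wholly below 0, and in none wholly above 0. The 40 to 45 Mb window held 178 hotspots in Saos-2 and 109 in U2OS, a centred log2 ratio of −1.01 (−1.36 to −0.65). The 95 to 100 Mb window held 118 and 78, a ratio of −0.9 (−1.33 to −0.47). The 75 to 80 Mb window held 97 and 74, a ratio of −0.69 (−1.15 to −0.24). The intervals of the other 17 windows included 0. With windows moved by 2.5 Mb, 4 intervals lay below 0 and 1 above it, at 52.5 to 57.5 Mb (8 Saos-2 hotspots against 24 from U2OS, 1.29, 0.08 to 2.65). Of the 17 windows in their first position whose interval included 0, the lowest was 15 to 20 Mb (19 and 14, −0.74, −1.85 to 0.33). The 3 highest of these 17 were 55 to 60 Mb (9 and 21, 0.92, −0.26 to 2.23), 65 to 70 Mb (23 and 45, 0.67, −0.09 to 1.46) and 80 to 85 Mb (15 and 27, 0.55, −0.41 to 1.56).

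Significance was also compared at sites called in both lines. It is tied to hotspot number, since a site is called when its significance passes the authors' threshold. A paired site is a hotspot in each line that overlaps only the other. Over the 607 paired sites of chromosome 13 the median log2 ratio of U2OS to Saos-2 significance was 0.04, against 0.38 over 27672 paired sites of all chromosomes. Saos-2 was higher at 296 of the 607 (48.8%), against 37.3% over all chromosomes. In the 40 to 45 Mb window it was higher at 52 of 65 paired sites (80%), with a median of −1.14. In the 75 to 80 Mb window it was higher at 31 of 42, with a median of −0.79, and in the 95 to 100 Mb window at 27 of 43, with a median of −0.64. These 3 windows together had a median of −0.74 over 150 paired sites, and the rest of the chromosome 0.25 over 457. The measures come from the same calls of the same libraries, so the paired values are a description and give no separate support to the counts.

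**Figure D3:**
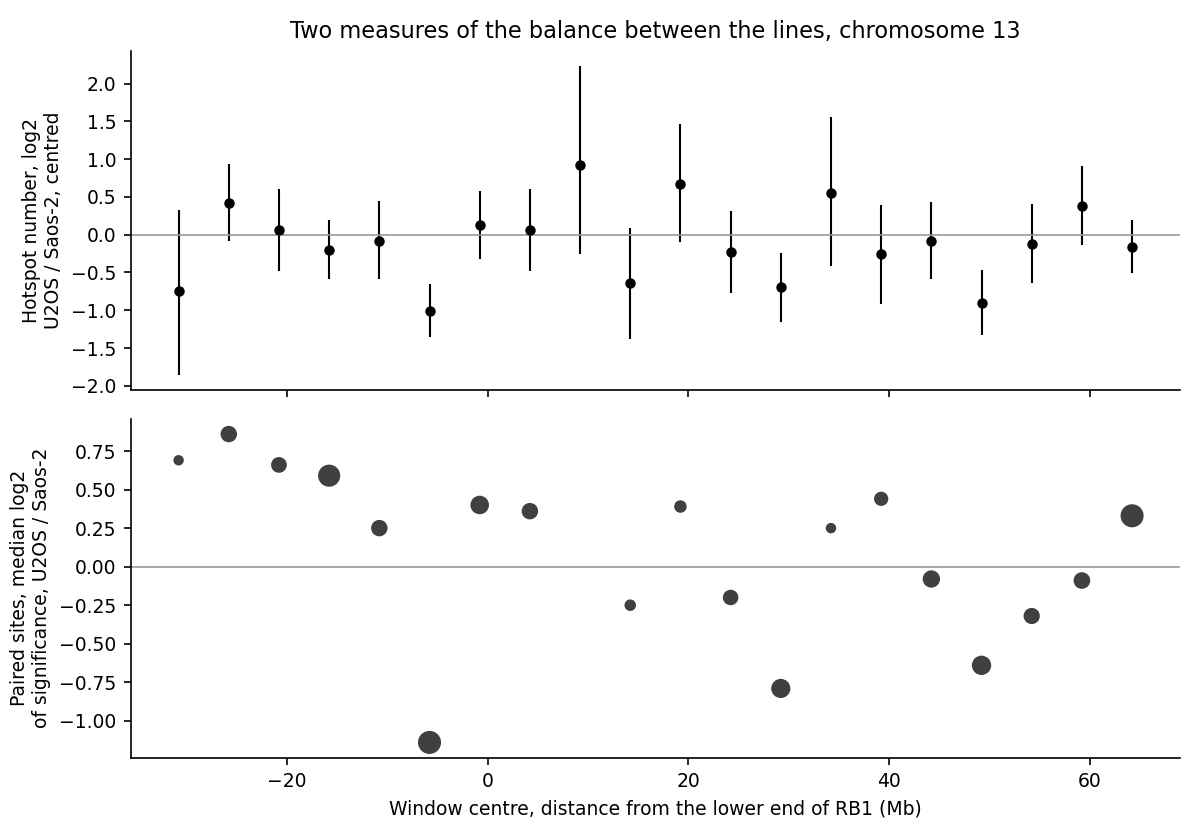
Top, centred log2 ratio of hotspot number (U2OS over Saos-2) per 5 Mb window, with 95% exact binomial intervals as bars; bottom, median log2 ratio of significance over paired sites, with larger points for more pairs and windows under 5 pairs left out; the horizontal axis is the distance of the window's centre from the lower end of RB1 (Mb). The 40 to 45 Mb window is the lowest on both measures at −1.01 and −1.14. RB1 itself lies in the next window, 45 to 50 Mb, at 0.13 and 0.4.

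The 40 to 45 Mb window also differed between the lines in covered bases, overlap and significance. Saos-2 hotspots covered 56519 bp there and U2OS hotspots 27811 bp. Of the Saos-2 hotspots 38.2% (31.4 to 45.5) were overlapped, and of the U2OS hotspots 65.1% (55.8 to 73.4). Median significance was 5.21 in Saos-2 and 3.95 in U2OS, the opposite order to the chromosome as a whole. Gene-end hotspots numbered 21 in Saos-2 and 11 in U2OS. At the 56 paired sites away from gene ends the median log2 ratio of significance was −1.15.

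In 1 Mb bins both measures lay below 0 in every bin from 41 to 45 Mb, an interval chosen after its values were seen. From 41 Mb upward the 4 bins held 46, 35, 34 and 50 hotspots in Saos-2, and 24, 17, 15 and 35 in U2OS. Their median log2 ratios at paired sites were −1.37, −1.08, −0.86 and −1.17. The bin below, at 40 Mb, held 13 and 18 hotspots with a median of 0.72. The bin above, at 45 Mb, held 37 and 24, a centred ratio of −0.92 (−1.73 to −0.14), with a median of 0.24. Both measures thus changed sign at 41 Mb. The paired ratio, unlike that of hotspot number, was not centred. At 45 Mb its 0.24 was above 0 but below the 0.38 of all chromosomes. The surplus in hotspot number ran on to 46 Mb. Over the 4 bins there were 165 hotspots in Saos-2 and 91 in U2OS, a centred ratio of −1.16 (−1.54 to −0.78), and Saos-2 had the higher significance at 50 of 60 paired sites. The low bin of 41 Mb, at −1.37, had the lowest paired median among the 56 bins of the chromosome with at least 5 pairs, and the bin of 49 Mb, beyond RB1, had the highest at 1.66.

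**Figure D4:**
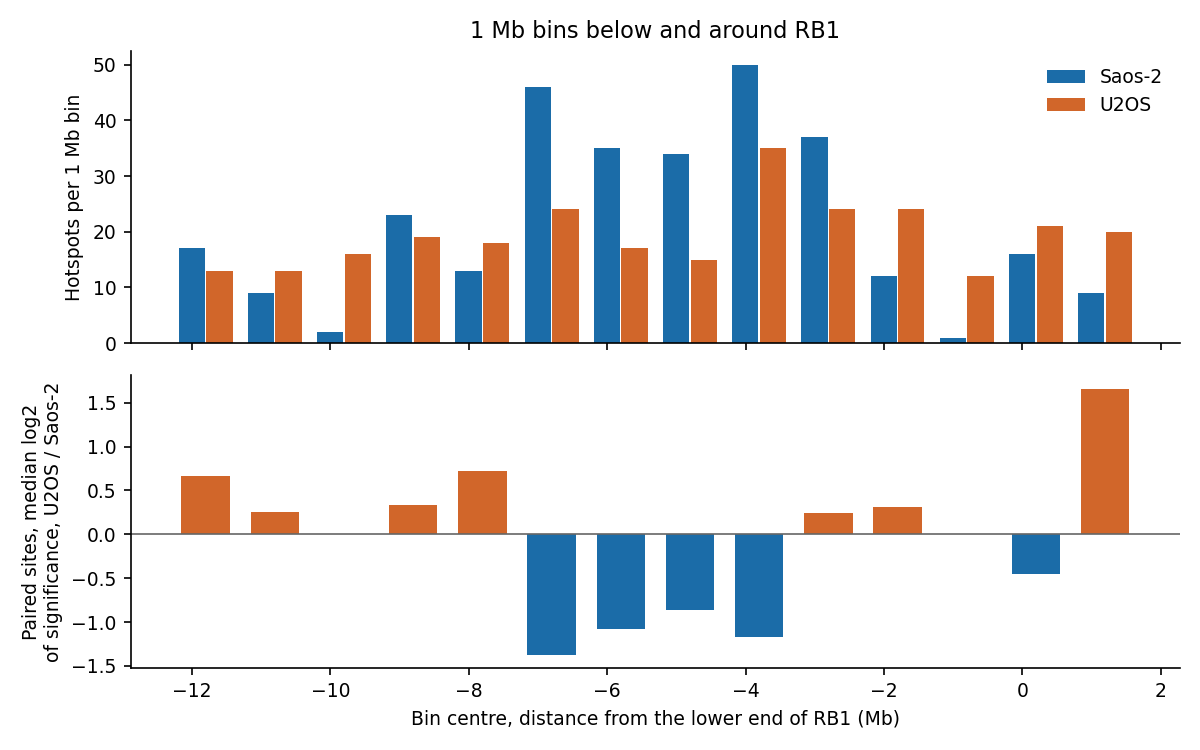
Hotspots per 1 Mb bin (top) and median log2 ratio of significance at paired sites (bottom, U2OS over Saos-2, bins under 5 pairs left empty) around RB1, against the distance of the bin's centre from the lower end of RB1 (Mb). The 4 bins from 41 to 45 Mb have more Saos-2 hotspots and medians between −1.37 and −0.86.

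In the 40 to 45 Mb window, picked for its low ratio in the same calls, more genes were called in Saos-2 alone than in U2OS alone. Of its 26 protein-coding genes, 11 were called at an end in both lines, 8 in Saos-2 but not U2OS, 1 in U2OS but not Saos-2 and 6 in neither. The 8 were MRPS31, a mitochondrial ribosomal protein, ELF1, an ETS transcription factor, WBP4, the interferon-induced EPSTI1, the mitochondrial co-chaperone DNAJC15, the oxidase ENOX1, CCDC122 and LACC1. The 1 in U2OS was RGCC, a regulator of the cell cycle, with a significance of 3.73. ELF1 and WBP4 adjoin in opposite orientation and share hotspots. Saos-2 hotspots covered 2482 bp within 10 kb of the ends of WBP4, and U2OS had none there. Within 10 kb of the ends of ELF1, Saos-2 hotspots covered 2186 bp and U2OS hotspots 76 bp. A run of 10 Saos-2 hotspots with no U2OS hotspot between them (chr13:40964085-41133157) crossed both genes, and another (chr13:43815238-44045092) crossed CCDC122 and LACC1. The first run ended at KBTBD6, in a site called in both lines, with 43.6 in Saos-2 and 13.3 in U2OS. A further 10 in a row lay at LMO7 (chr13:75787673-75935290), in the 75 to 80 Mb window, and LMO7 encodes a protein of cell junctions.

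Saos-2 also had more hotspots inside several long genes of these windows, which were picked after their values were seen. VWA8 held 19 hotspots in Saos-2 and 10 in U2OS, DGKH, a diacylglycerol kinase, 15 and 5, and ENOX1 17 and 7. LMO7 held 14 and 3. STK24, a kinase of the 95 to 100 Mb window, held 9 and 4, and DOCK9, an activator of CDC42, 7 and 5. Of the 34 chromosome 13 genes called at an end by Saos-2 alone, 13 lay in the 3 low windows (19.7% of the 66 genes there, against 7.72% of the 272 elsewhere). Of the 33 genes called in U2OS alone, 4 lay in these windows (6.06%, against 10.7%). The windows were picked by hotspot counts from the same calls. Gene shares that lean to Saos-2 there follow from that choice and give no separate support.

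Counted over the chromosome, 132 of 338 protein-coding genes were called at an end by both lines (39.1%, against 42.7% of all protein-coding genes). Another 34 were called by Saos-2 alone (10.1%, 7.29 to 13.7, against 5.07%), 33 by U2OS alone (9.76%, 7.04 to 13.4, against 10.5%) and 139 by neither (41.1%, against 41.7%). The U2OS share was thus near the whole-genome value, and the Saos-2 interval lay above it. With lists of equal length the counts were 43 for Saos-2 alone and 22 for U2OS alone.

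RB1 spans chr13:48303751-48481890 on the plus strand. Both lines had a hotspot over its start, chr13:48303290-48303918 in Saos-2 (629 bp, significance 11.9) and chr13:48303421-48303851 in U2OS (431 bp, significance 7.05). Saos-2 had a further pair of weak hotspots inside the gene, at chr13:48304507-48304632 with 1.7 and at chr13:48446607-48446732 with 2.04. U2OS had none beyond the start. The next hotspot lay 50.8 kb past the gene in Saos-2 and 50.7 kb in U2OS, at the same site inside RCBTB2, where Saos-2 had 9.66 and U2OS 19.1. The RB1 start was therefore called in both lines.

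Below RB1, the genes ESD, SUCLA2 and MED4 were each called at an end in both lines, with the higher value in Saos-2. ESD, an esterase, had 9.04 in Saos-2 and 8.72 in U2OS. SUCLA2, a subunit of succinyl-CoA synthetase, had 7.98 and 5.06. The MED4 promoter printed above had 14.6 and 8.34. Above RB1, the site in RCBTB2, which touches a RefSeq promoter of that gene, was higher in U2OS. One inside CYSLTR2, a leukotriene receptor, was higher in Saos-2, with 11.8 and 7.11. FNDC3A was called at its outermost start in U2OS alone, with 2.01. A RefSeq promoter inside FNDC3A had a hotspot in both lines, with 5.79 in Saos-2 and 11.2 in U2OS. ITM2B, an amyloid-related membrane protein, had no gene-end hotspot in either line and a single hotspot inside in U2OS (chr13:48263249-48263477, 5.24). HTR2A, a serotonin receptor, had none within 10 kb of its ends in either line.

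**Figure D5:**
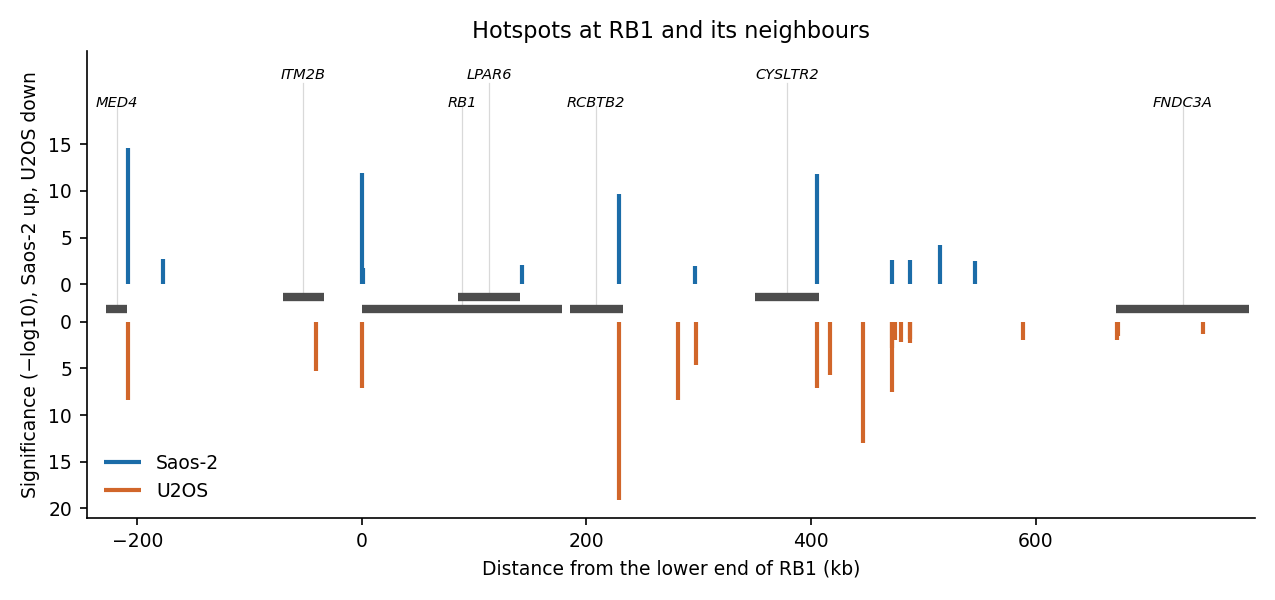
Hotspots around RB1 by distance from its lower end (kb), with bar height as significance (−log10), Saos-2 upward and U2OS downward, and genes as grey bars. Both lines have a bar at 0, with 11.9 in Saos-2 and 7.05 in U2OS, and the tallest U2OS bar, 19.1, lies in RCBTB2.

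The windows on either side of RB1 depended on how far they reached. In the 5 Mb below the gene there were 129 hotspots in Saos-2 and 109 in U2OS, a centred ratio of −0.54 (−0.92 to −0.16), and 34 of 56 paired sites were higher in Saos-2, with a median of −0.43. This stretch takes in the upper part of the 41 to 45 Mb interval. In the 2 Mb below there were 18 and 34, a ratio of 0.62 (−0.25 to 1.53), and in the 1 Mb below 8 and 15, a ratio of 0.61 (−0.72 to 2.05), so the sign turned. In the 5 Mb above the gene there were 68 and 94, a ratio of 0.17 (−0.3 to 0.64), with a paired median of 0.68 over 42 sites. In the 2 Mb above there were 22 and 46, a ratio of 0.76 (0.0 to 1.57), with a paired median of 1.27 over 19 sites, and U2OS was lower at 3 of them. In the 1 Mb above there were 10 and 23, a ratio of 0.9 (−0.22 to 2.14). Of the Saos-2 hotspots in the 2 Mb above, 86.4% (66.7 to 95.3) were overlapped, compared with 41.3% (28.3 to 55.7) of the U2OS hotspots.

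The region just above RB1 includes the interval of 13q14 often deleted in chronic lymphocytic leukaemia. Of 7 genes listed for it, 4 were called at an end by both lines, EBPL and the long non-coding DLEU2 by U2OS alone, and DLEU7 by neither. U2OS had more covered bases within 10 kb of the ends of 5 of the 7, with medians of 884 bp in U2OS and 247 bp in Saos-2. The medians over all chromosome 13 protein-coding genes were 241 and 233 bp, a set without the non-coding DLEU1 and DLEU2 of this list. KPNA3, an importin, had 4.39 in Saos-2 and 17.6 in U2OS. The start of the long non-coding DLEU1, which lies inside DLEU2, had 8.31 and 14.4. DLEU2 held 3 hotspots in Saos-2, all overlapped, and 6 in U2OS. EBPL had no hotspot near its ends in Saos-2 and one of 5.85 in U2OS.

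Genes of the cell cycle and of chromatin were mostly called in both lines. Of 9 listed genes, 8 had one at an end in each line, and CUL4A, the scaffold of a ubiquitin ligase, had one in U2OS alone. Over all 338 protein-coding genes of the chromosome the share called in both was 39.1%. U2OS covered more bases within 10 kb of the ends of 8 of the 9, where over all 338 it covered more at 123, Saos-2 at 134 and 81 were equal. TFDP1, the partner of E2F, had 6.06 in Saos-2 and 17.5 in U2OS, and SETDB2, a histone methyltransferase, had 5.45 and 31.4. DIAPH3, a formin, had 9.6 and 19.7, and CDC16, a subunit of the anaphase-promoting complex, 5.58 and 11.1. The shared promoter of MZT1 and BORA, both needed for the mitotic spindle, had 29.1 and 23.5, and ING1, a reader of histone marks, 17.9 and 11.6. The U2OS hotspot of CUL4A, 14.5, is the one over PCID2 printed above, since these genes adjoin in opposite orientation.

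Of 5 genes of DNA repair and replication, 4 were called in both lines and RNASEH2B, a subunit of ribonuclease H2, in U2OS alone, with 1.72. For this short list and the next, the chromosome's protein-coding genes had 39.1% called in both, 9.76% in U2OS alone and 41.1% in neither. BRCA2, which acts in homologous recombination, had 6.49 in Saos-2 and 9.72 in U2OS. RFC3, of the clamp loader, had 4.54 and 10.5, and the excision nuclease ERCC5 4.88 and 11.5. LIG4, the ligase of end joining, had 12.6 and 7.79. Of 7 housekeeping entries, 5 were called in both, among them TPT1 with 8.9 and 9.69 and SAP18 with 7.41 and 7.87. MRPL57 was called in U2OS alone, with 8.7, and the pseudogene ATP5F1EP2 in neither.

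Of 13 genes of bone, mesenchyme and matrix, 2 were called at an end by both lines, EFNB2 by Saos-2 alone, FGF9, FREM2 and GPC5 by U2OS alone, and 7 by neither, where the shares over the chromosome's genes were 39.1%, 10.1%, 9.76% and 41.1%. With 13 genes these counts give no ground to set the list apart. The 7 included POSTN, a matrix protein of periosteum, TNFSF11, and KL, the co-receptor of FGF23, and these 3 had no hotspot within 10 kb of their ends in either line. SPRY2, an inhibitor of growth factor signalling, had 9.53 in Saos-2 and 4.37 in U2OS. Long genes of this list held many hotspots in their bodies. The collagen gene COL4A2 held 28 in Saos-2 and 16 in U2OS, of which 14 in each line were overlapped. The glypican genes GPC6 and GPC5 held 21 and 13 in Saos-2, and 25 and 20 in U2OS.

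Among 8 factors of growth and stress signalling, 3 were called at an end by both lines, ELF1 and IRS2 by Saos-2 alone and FOXO1, KLF5 and KLF12 by neither. RefSeq promoters inside KLF5 and KLF12 did have a hotspot in both lines. The one in KLF5 had 8.29 in Saos-2 and 12.6 in U2OS, and the one in KLF12 had 10.1 and 5.45. FOXO1, a forkhead factor downstream of insulin, held 3 hotspots in Saos-2 and 0 in U2OS, the highest at 9.49. TSC22D1 had 11.3 in Saos-2 and 6.88 in U2OS, and the chromatin protein HMGB1 had 7.56 and 11.3. KLF12 held 20 hotspots in Saos-2 and 13 in U2OS. Of 9 lineage factors of other tissues, GSX1 was called by both, POU4F1 and ZIC2 by Saos-2 alone, SOX1 by U2OS alone and 5 by neither, and the called values were between 1.6 and 4.32. Of 17 genes of other differentiated tissues, 3 were called by both lines, 3 by Saos-2 alone, 2 by U2OS alone and 9 by neither. Beside these short lists, the shares over the chromosome's protein-coding genes were 39.1%, 10.1%, 9.76% and 41.1% in the same order. MIR17HG, the host of the growth-promoting miR-17-92 cluster, was called in both lines, with 8.2 and 7.02. Of 34 microRNA hairpins on the chromosome, 17 had a Saos-2 hotspot within 10 kb (50%, against 43.1% of hairpins on all chromosomes) and 15 had a U2OS hotspot (44.1%, against 47.3%).

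The strongest sites shared by both lines were at gene starts and inside or between genes. The start of AKAP11, an anchor of protein kinase A (chr13:42271359-42272145 in Saos-2), had 34.1 in Saos-2 and 37.6 in U2OS, although it lies in the 40 to 45 Mb window. That of GPR180 was given above. The start shared by DIS3, a catalytic subunit of the RNA exosome, and PIBF1 (chr13:72781776-72782315) had 37.9 and 33.2. A site inside GPC6 (chr13:93602996-93603429), 387 kb from its nearest end, had 37.1 and 33.5. A site 380 kb from NDFIP2 (chr13:79936449-79937147) had 33 and 39.9.

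The strongest Saos-2 hotspot without a U2OS counterpart was at chr13:41520371-41521204, with a significance of 47.1, the highest of the Saos-2 list on this chromosome. It lies in a long non-coding RNA gene 45.6 kb from VWA8, and the nearest U2OS hotspot was 23.5 kb away. The next were at chr13:77429617-77430216 (31), chr13:31394515-31395173 (26.8), chr13:87235011-87235394 (22.7) and chr13:44618281-44618712 (21.8). The last lies 40.9 kb from TSC22D1. In U2OS the strongest was at chr13:113532086-113532688 (41.1), inside SLC9D1. It was followed by chr13:89514456-89515180 (32.7), which lies 1835 kb from SLITRK5, the nearest protein-coding gene, and by chr13:105442948-105443324 (32.2), 22.5 kb from DAOA. The next were chr13:49313869-49314357 (29.6), inside CAB39L in the region above RB1, and chr13:19118077-19118725 (26.1). None of these 10 lay within 1 kb of a protein-coding gene end.

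Genes covered within 10 kb of their ends in 1 line alone were led in Saos-2 by WBP4, with 2482 bp, followed by MCF2L with 751 bp, LACC1 with 670 bp, SERP2 with 628 bp and GPR183, a receptor for oxysterols, with 612 bp. WBP4, LACC1 and SERP2 lie in the 40 to 45 Mb window and GPR183 in that of 95 to 100 Mb. In U2OS they were PCID2 with 993 bp, SCEL with 615 bp, METTL21C with 565 bp, EBPL with 531 bp and LATS2, a kinase of the Hippo pathway, with 522 bp. No 2 of these 5 lie in the same 5 Mb window. This ranking leaves out hotspots deeper inside a gene. With the gene body counted as well, MCF2L drew 6 hotspots from Saos-2 against 8 from U2OS. RefSeq promoters inside MCF2L were called in U2OS alone at 2.11, 4.84 and 1.79. On the same count PCID2 drew 4 from U2OS and 2 from Saos-2, and LATS2 drew 5 and 2. For the other genes of this ranking the opposite line gave 0.

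The longest U2OS runs, unlike those of Saos-2, were spread over wide stretches. A run of 14 (chr13:21670962-22486927) covered 816 kb around FGF9, a growth factor gene, and the 2 Mb from 21 to 23 Mb, chosen after its values were seen, held 10 hotspots in Saos-2 and 42 in U2OS (centred ratio 1.77, 0.75 to 2.93). Another 14 (chr13:54536216-58852358) spanned 4316 kb that contain PCDH17, a protocadherin of neurons. A run of 13 (chr13:80469917-83896558) spanned 3427 kb that contain SLITRK1, a neuronal membrane protein. Neither PCDH17 nor SLITRK1 had a hotspot inside or within 10 kb in either line. The 3 longest Saos-2 runs, of 10 hotspots each, spanned 169, 230 and 148 kb. Runs of at least 8 numbered 10 in Saos-2 and 17 in U2OS, of 737 runs in each line.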

How the data were processed

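DNase-seq libraries of Saos-2 and U2OS were used, 1 per line, each grouped by the cell line in its label. Per the labels' protocols, DNase I was applied for 3 min at 37 °C and libraries were amplified by PCR. The submitters' processing notes name Trimmomatic 0.38, BWA 0.7.15 and hg38. The caller, its filters and the read depth are not given in the sources used here. Each deposited list gives a −log10 value per hotspot, with a lowest value of 1.3 and a highest of 100; the lists have no header to name it, and it was used as the authors' significance to rank hotspots. The deposited score column follows this value and was not used. A ratio of significance between the lines also depends on depth.

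Overlap was at least 1 bp. Gene ends, covered bases within 10 kb, 5 Mb windows, 1 Mb bins and runs were computed with Python 3.11.15, numpy 2.4.6, pandas 2.3.3 and scipy 1.17.1, and the counting code was checked on simulated lists. Shares have Wilson 95% intervals, and ratios have exact conditional binomial 95% intervals. With 1 library per line no test was run. The members, gene lists and rules were chosen with earlier results of these data known. The genes and sites named are the fixed lists (1 listed gene is not reported here), the 5 genes and 5 unshared sites per line that rank highest, the 3 windows at each end of the ratio, the 3 longest runs, the 5 strongest shared sites, the 3 widest hotspots per line and the 3 longest gaps. Alternatives were another overlap, width, gene-end distance, gene set, window and list length.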

Additional observations from a re-analysis of the deposited data

How the results depend on the processing

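Of 79 alternative values for 25 results, 55 stayed within their interval or 1.5 times the count, 22 moved and 2 turned sign. The sign turns were those below RB1, where −0.54 over 5 Mb became 0.61 over 1 Mb and 0.62 over 2 Mb. Above RB1, 0.17 over 5 Mb became 0.9 over 1 Mb and 0.76 over 2 Mb. The chromosome's centred ratio was −0.35 with the upper 50% of each list by significance and 0.0 without the 3 low windows. Requiring an overlap of 50% of both hotspots lowered the overlapped share to 37.6% for Saos-2 and 35.5% for U2OS, 54.2% and 60.1% at gene ends, and 34.8% and 32% elsewhere. Lists of equal length gave 43.2% and 51.8%, with 79.7% at gene ends in U2OS and 40.3% and 47.6% elsewhere, and an isolated share of 7.83% in Saos-2. The upper 50% gave 46% in Saos-2. Gene-end shares were 12.6% within 500 bp in Saos-2, 17.9% and 14.5% within 2.5 kb, and 21.5% and 19.5% with all annotated genes. The causes were not tested. The ratio of the 40 to 45 Mb window lay between −1.35 with covered bases and −0.99 with merged hotspots. With windows moved by 2.5 Mb the lowest ratio was −0.85, in the window from 97.5 Mb, and that from 42.5 Mb had −0.73. Alternatives added after seeing the data were those that leave out windows, the isolated share with equal lists, the paired sites away from gene ends and the interval of 41 to 45 Mb.

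Depth is unknown, so the absence of a hotspot from a list is not the absence of accessible DNA. No paired analysis was possible because each line has 1 library.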

Other observations

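The widest hotspots of chromosome 13 were at transfer RNA genes and at strong sites of both lines. The transfer RNA gene TRE-TTC2-1 lay in a hotspot of 1161 bp in Saos-2 (chr13:44917602-44918762) and 1151 bp in U2OS (chr13:44917589-44918739). TRF-GAA1-5, at the start of DCT, lay in a U2OS hotspot of 1033 bp. The widest Saos-2 hotspot, 1328 bp with a significance of 29.3, was inside ENOX1 (chr13:43572405-43573732). The third in Saos-2, 1145 bp, was in the long non-coding LINC00385, and the second in U2OS, 1052 bp, was at the start of SUGT1, a co-chaperone of HSP90.

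Stretches without a hotspot in either line were longest at chr13:81339959-82717333 (1377 kb), at chr13:57570340-58598323 (1028 kb), which contains PCDH17, and at chr13:70409160-71291022 (882 kb).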
